A study of Oryza sativa with 20 samples.

Results

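These results concern 166 genes of rice (Oryza sativa) shoots that stayed within set limits of the control level through the first 2 h after the start of a short heat shock and were higher in the heated plants at 10 h. They were taken from 37248 gene IDs, of which they make up 0.446%. For a gene with several rows in the deposited table the row of highest mean FPKM was used, and FPKM stands for fragments per kilobase of transcript, scaled to the mapped fragments. The ratio of heated to control was taken as (FPKM + 1) over (FPKM + 1). A member had a ratio between 0.6 and 1.6 at each time up to 2 h, a ratio of at least 1.9 at 10 h, and at least 5 FPKM in the heated shoots at 10 h. The members were thus chosen by their heated-to-control ratios at all 5 times and by their level in heated shoots at 10 h, and these values are given as a description, with no test.

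Wild-type plants, 2 weeks old, were inverted in their pots so that the shoots stood in water at 42 °C (heated) or at 22 °C (control) for 10 min, and then recovered at 30 °C. Heated shoots were sampled 10 min and 20 min and then 1 h, 2 h and 10 h from the start of the bath, and control shoots at the same times. Each of the 10 groups had 2 libraries of 3 shoots each, 20 libraries in all, but the authors combined them and the table has 1 column per group. No SD or n of libraries can stand beside a level, and the depth is unknown. Control shoots were also inverted and immersed, and they moved from 22 °C to 30 °C, so an effect of heat and an effect of the control bath on the controls cannot be told apart.

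Plants answer heat through heat stress transcription factors, which switch on chaperone genes within minutes, and those transcripts decline again once the temperature returns to normal. Recovery also has later phases, in which metabolism, growth and photosynthesis are readjusted. Many plant transcripts cycle with the day as well, under the circadian clock and light, so that samples taken hours apart differ with no treatment. The table gives locus IDs with no names, and 0 of them matched the reference table of rice gene names, so no function is given to any member, the pathway lists could not be formed, and the labelled shoot tissue was not checked against markers. In whole shoots, more RNA per cell and more cells of a type that makes the RNA cannot be told apart.

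At 10 h the members had a median of 50.1 FPKM in heated shoots and 22.4 FPKM in control shoots. Their median ratio was 2.07, or 1.05 on the log2(FPKM + 1) scale, with a range of 1.904 to 6.98. Over the 22704 genes with a mean of at least 1 FPKM the median at 10 h was 0.03 on this scale. Over the 14698 genes with at least 5 FPKM in heated shoots at 10 h, the minimum that the members met, it was 0.09. Of these 14698 genes, 60.6% had a ratio above 1 at 10 h. Most members thus lay close above the limit of the rule: 119 of 166 had a ratio of at least 2, 21 a ratio of at least 2.5 and 11 a ratio of at least 3. At the limit the values ran on without a gap. The member just inside it had 46.2 FPKM in heated shoots and 23.8 FPKM in control shoots, a ratio of 1.904, and the gene just outside had 75.2 FPKM in heated shoots and 39.1 FPKM in control shoots, a ratio of 1.899. Among genes that met the other conditions, 90 had a ratio from 1.8 up to 1.9 and 47 a ratio from 1.9 up to 2.0.

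Before 10 h the medians of the members lay close together in both kinds of shoot. In heated shoots their medians at 10 min, 20 min, 1 h and 2 h were 19.1, 24.9, 19.1 and 21.1 FPKM, against 18.1, 22.1, 21.1 and 22.7 FPKM in control shoots. The window of the rule sets this likeness, and single members varied within it: 63 had a ratio of 0.7 or less at an early time, 37 a ratio of 1.4 or more, 12 of them both, and 46 stayed between 0.75 and 1.3 at all 4 early times. Inside the window, however, the members leaned low at 1 h: the ratio was below 1 in 128 of 166 members (77.1%), against 62.2% of the 7599 genes that met the same early window and the same minimum at 10 h but stayed under a ratio of 1.9. The median log2 ratio at 1 h was -0.27 in the members and -0.13 in those 7599 genes. At 20 min the members leaned the other way, with a median log2 ratio of 0.10 against -0.01 in the 7599 genes, and at 10 min the medians were -0.01 and 0.00. At 2 h the ratio was below 1 in 57.8% of the members and 54.3% of the 7599 genes, with median log2 ratios of -0.11 and -0.05.

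**Figure D1:**
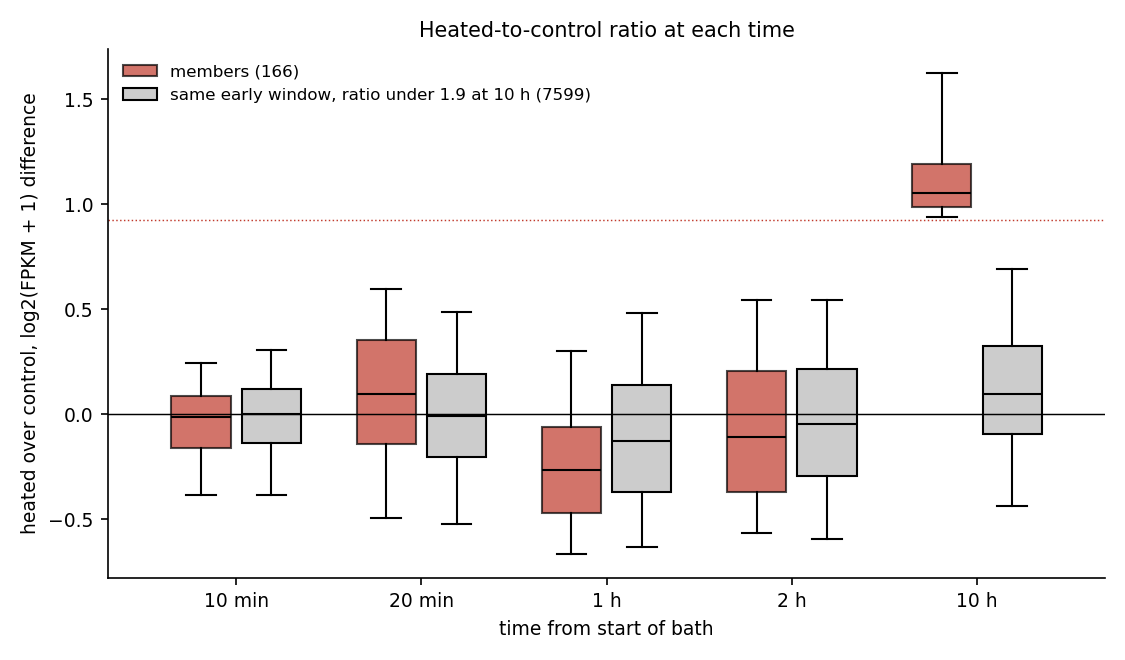
Heated-to-control difference on the log2(FPKM + 1) scale at each time, for the 166 members (left box of each pair) and the 7599 genes in the same early window with a ratio under 1.9 at 10 h (right box). Boxes span the quartiles, the line is the median, whiskers reach percentiles 5 and 95, and the dotted line marks a ratio of 1.9. The members' median is -0.27 at 1 h and 1.05 at 10 h.

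The authors' deposited table gives a q-value for heated against control at each time, but the sources used here do not name the test behind it. A gene is called here when that q is below 0.05. At 10 h the authors' deposited table called 110 of 166 members higher, where it called 4.18% of the 14698 genes with at least 5 FPKM in heated shoots at 10 h. The ratio that chose the members belongs to the same contrast, so the count only describes them. For 78 of the 110 the authors' deposited table, which keeps 2 decimals, shows a q of 0. The other 56 members had a median q of 0.15 in the authors' deposited table, with a range of 0.05 to 0.83. Called and uncalled members had similar median ratios, 2.08 and 2.05, but the called ones stood at a median of 57.2 FPKM in heated shoots at 10 h and the uncalled ones at 18.01 FPKM.

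Calls followed level at the low end. By the q-values of the authors' deposited table, 8 of 24 members between 5 and 10 FPKM in heated shoots at 10 h were called, 41 of 59 between 10 and 50 FPKM, 44 of 56 between 50 and 200 FPKM, and 17 of 27 above 200 FPKM. Among the 8 members with the highest level in heated shoots at 10 h, 4 were called in the authors' deposited table. At the earlier times the window left little room for a call. No member was called at 10 min or at 2 h, where the authors' deposited table called 1.2% and 12.3% of the 14698 genes higher and 2.69% and 7.78% lower. It called 2 members lower at 20 min, with ratios of 0.615 and 0.617, and 4 members lower at 1 h, with ratios of 0.604 to 0.644; the background of lower calls in the authors' deposited table was 6.4% at 20 min and 10.3% at 1 h. It called no member higher at 20 min or 1 h, where 2.95% and 10.8% of the 14698 genes were called. These 6 members, 2 of them IDs with one shared set of values, had therefore a call before 10 h in the direction opposite to their later difference.

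**Figure D2:**
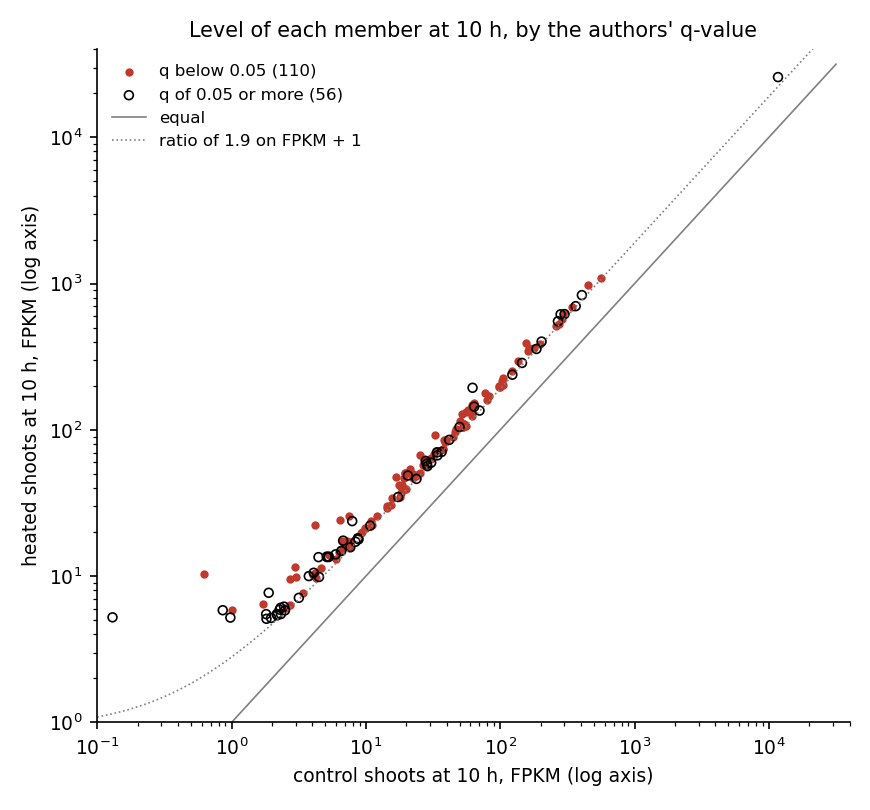
FPKM of each of the 166 members in heated shoots (vertical axis) and in control shoots (horizontal axis) at 10 h, both on log axes. Filled points had q below 0.05 in the authors' deposited table (110) and open points did not (56); the open point at the top right is the member at 25804 FPKM in heated shoots and 11692 FPKM in control shoots.

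A difference at 10 h can come from a higher level in heated shoots, a lower level in control shoots, or both, and the members were split by their change from 2 h to 10 h within each kind of shoot, with 1.5-fold on FPKM + 1 taken as a change. The 10 h values had been used to choose the members, so the split is a description. With a ratio of at most 1.6 at 2 h and at least 1.9 at 10 h, the change must be more upward in heated than in control shoots. In heated shoots 139 of 166 members (83.7%) were higher at 10 h than at 2 h, 22 were within 1.5-fold and 5 were lower. In control shoots 63 (37.95%) were higher, 72 within 1.5-fold and 31 (18.7%) lower. Over the 7599 genes of the same early window, 31.2% were higher at 10 h than at 2 h in heated shoots, and in control shoots 19.2% were higher and 8.87% lower. The members' median change was 1.55 on the log2 scale in heated shoots and 0.41 in control shoots, against 0.21 and 0.11 in the 7599 genes.

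The 2 largest classes differed by whether the controls were higher as well, and their sizes depend on the limits: 69 and 63 members here, 97 and 27 with 2-fold taken as a change, and 121 and 67 with a minimum of 1 FPKM in heated shoots at 10 h. With early ratios held between 0.75 and 1.3 they held 24 and 13 members, and with a 10 h ratio of at least 2.5 they held 12 and 4. In 69 members the heated shoots were higher at 10 h than at 2 h while the control shoots stayed within 1.5-fold. Their median in heated shoots came to 9.43 FPKM at 10 min, 7.95 FPKM at 20 min, 8.60 FPKM at 1 h, 14.7 FPKM at 2 h and 30.8 FPKM at 10 h, while control shoots had 11.3, 10.3, 10.7, 15.6 and 15.3 FPKM. In 63 members both kinds of shoot were higher at 10 h than at 2 h. That the heated change is the larger is set by the rule. Their median was 16.6 FPKM at 2 h and 70.7 FPKM at 10 h in heated shoots, against 18.3 FPKM and 36.6 FPKM in control shoots. The median change of these 63 was 2.00 on the log2 scale in heated shoots and 0.95 in control shoots. At 10 h 40 of the 69 and 44 of the 63 were called in the authors' deposited table.

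For a smaller set the word rise does not describe the change of the heated shoots from 2 h to 10 h. In 19 members the heated shoots stayed within 1.5-fold between 2 h and 10 h and the control shoots were lower. Their median was 51.4 FPKM at 2 h and 47.2 FPKM at 10 h in heated shoots, against 59.4 FPKM and 19.5 FPKM in control shoots. In 5 more both kinds of shoot were lower at 10 h, with medians of 99.8 FPKM at 2 h and 39.7 FPKM at 10 h in heated shoots, against 137.5 FPKM and 20.02 FPKM in control shoots. In these 24 of 166 members the heated shoots had a smaller drop from 2 h than the control shoots, or none. The split depends on 2 h as its start. At 10 min the 19 had medians of 35.9 FPKM in heated shoots and 37.5 FPKM in control shoots. Their heated median was thus higher at 10 h than at 10 min. The 5 had 86.2 FPKM and 87.9 FPKM at 10 min. With another start a member can fall in another class, and no other start was tried. The remaining members were 7 with heated shoots higher and control shoots lower, and 3 with both within 1.5-fold.

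**Figure D3:**
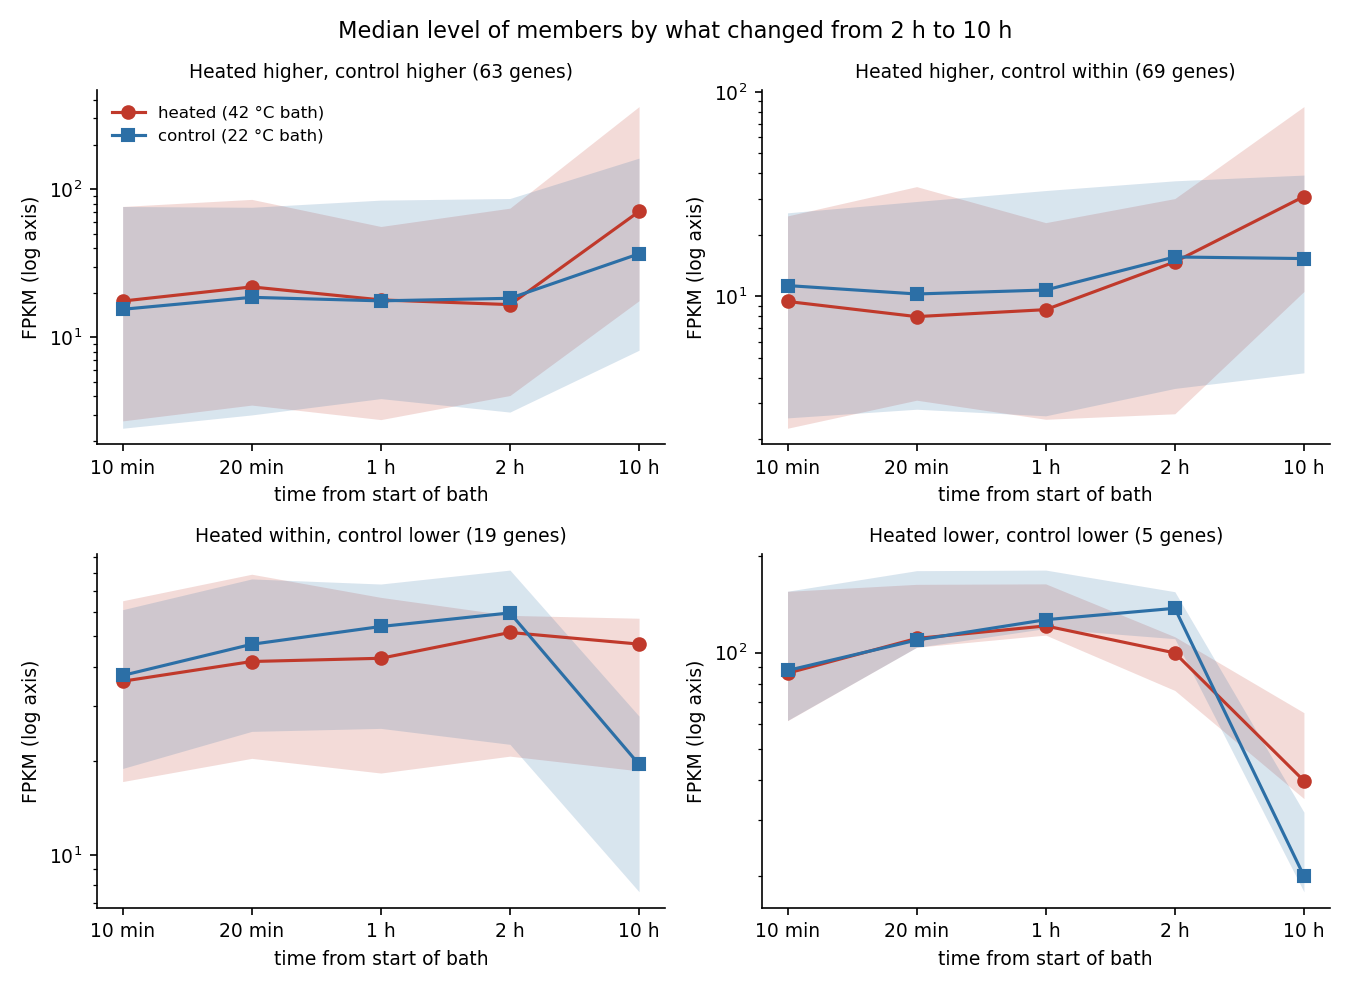
Median FPKM (log axis) of the members at each time in heated shoots (circles) and control shoots (squares), in panels by the change from 2 h to 10 h; bands span the quartiles over genes. Against 2 h, the gap at 10 h opens through a higher heated level in the upper panels and through a lower control level in the lower panels. In smaller classes, 10 members are not drawn.

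The control shoots at 10 h were set beside the 4 earlier control groups. In 103 of 166 members (62.0%) the 10 h control lay above all 4 earlier controls, in 26 inside their range and in 37 (22.3%) below all of them. In the 7599 genes of the same early window the shares were 45.1% above, 32.5% inside and 22.3% below. The 10 h ratio of the rule favours a low control at 10 h, and the minimum of 5 FPKM in heated shoots held for the 7599 genes as well. How far the rule shapes these shares was not tested. In the 103 members the median in control shoots was 12.3 to 15.6 FPKM at the 4 earlier times and 25.5 FPKM at 10 h, where the heated shoots had 56.5 FPKM. In all, 143 members had a heated level at 10 h above the 8 earlier groups of both kinds, 14 lay inside the range of those groups and 9 below it. Up to 2 h the controls of the members had a median ratio of highest to lowest of 1.36 over the 4 earlier controls on FPKM + 1, against 1.27 in the 7599 genes. This ratio was below 1.5 in 108 members and at least 1.5 in 58, of which 20 had at least 2. The largest was 13.8. The sources used here do not state the time of day at sampling, so time of day and hours of recovery cannot be told apart.

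**Figure D4:**
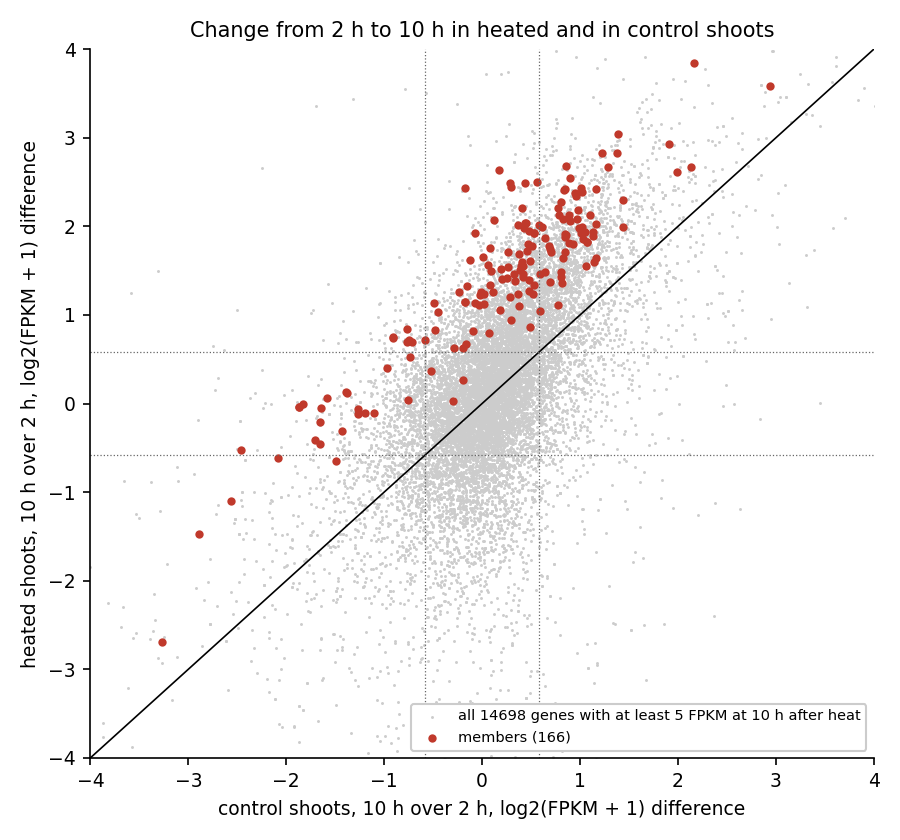
Change from 2 h to 10 h in heated shoots (vertical axis) and in control shoots (horizontal axis), as differences of log2(FPKM + 1), for the 166 members (large points) and all 14698 genes with at least 5 FPKM in heated shoots at 10 h (small points; 135 lie beyond the axes). The solid line marks equal change and dotted lines mark 1.5-fold. The limits of the rule at 2 h and 10 h place every member above the solid line. Of the members, 139 lie above the upper horizontal dotted line.

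The member with the largest ratio, OS03G0604566, was close to silent in every other group. It had 0.45 FPKM at 10 min, 0.68 FPKM at 20 min, 0.41 FPKM at 1 h, 1.10 FPKM at 2 h and 10.3 FPKM at 10 h in heated shoots, against 0.73, 0.84, 0.51, 0.83 and 0.62 FPKM in control shoots. The heated shoots at 10 h alone stand apart, with a log2 ratio of 2.80 and a q that rounds to 0 in the authors' deposited table. OS04G0252400, second by ratio among the called members, had 2.77, 3.10, 2.89, 3.15 and 22.3 FPKM at these times in heated shoots, against 2.54, 2.34, 2.33, 2.81 and 4.16 FPKM in control shoots. Its 10 h control was also the highest of the controls, its log2 ratio was 2.17, and its q also rounds to 0 in the authors' deposited table. Both belong to a low-level group: 37 members were under 5 FPKM in all 8 earlier groups, 8 of the 11 members with a ratio of at least 3 among them. These 37 reached at most 29.1 FPKM in heated shoots at 10 h, and the authors' deposited table called 16 of them, against 94 of the other 129. Another of these low members was listed at 0 in all 8 earlier groups, and it had 5.23 FPKM in heated shoots and 0.13 FPKM in control shoots at 10 h with q = 0.78 in the authors' deposited table. In all, 3 members were listed at 0 in at least 1 group.

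At the other end of the scale stood a single very abundant transcript, the highest of all genes in the heated shoots at 10 h. It had 10483 FPKM at 10 min, 9718 FPKM at 20 min, 9197 FPKM at 1 h, 5343 FPKM at 2 h and 25804 FPKM at 10 h in heated shoots, against 11534, 9129, 12477, 6666 and 11692 FPKM in control shoots. Both kinds of shoot were lowest at 2 h, and only the heated shoots at 10 h lay outside the range of the others on the high side. Its log2 ratio at 10 h was 1.14 with q = 0.53 in the authors' deposited table, so the ratio was not called. The next highest member had 1097 FPKM in heated shoots and 566 FPKM in control shoots at 10 h, with q = 0.01 in the authors' deposited table. Because of the first of them, the members' share of all FPKM is best read without it: the others together took 2.43% in heated shoots and 1.38% in control shoots at 10 h, against 0.594% to 1.01% in heated shoots and 0.816% to 1.27% in control shoots before. With it the shares at 10 h were 5.63% and 3.10%. All shares were taken of the summed FPKM of the group, which includes this transcript. That sum ran from 661048 in control shoots at 2 h to 1175511 in heated shoots at 1 h, so a share also moves with it.

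OS08G0139100 had the largest lowering of the control from 2 h to 10 h among the members whose heated level stayed within 1.5-fold. It was picked for this after its values were seen. It had 93.9 FPKM at 10 min, 188.1 FPKM at 20 min, 120.5 FPKM at 1 h, 189.5 FPKM at 2 h and 131.5 FPKM at 10 h in heated shoots, against 97.4, 196.0, 176.0, 311.1 and 55.6 FPKM in control shoots. The control was highest at 2 h and lowest at 10 h, while the heated shoots stayed between these extremes. At 2 h its heated-to-control ratio was 0.611, just inside the lower limit of 0.6, so its change in control shoots starts from a control above the heated level. The difference from 2 h to 10 h was -0.52 in heated shoots and -2.46 in control shoots on the log2(FPKM + 1) scale, and q at 10 h rounds to 0 in the authors' deposited table.

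The 166 IDs stand for 162 distinct sets of values, since 8 of them share their values with another member. Such IDs are not separate measurements. Other rows of the same gene IDs gave a readout that the rule did not use, though from the same libraries. There were 54 such rows with a mean of at least 0.1 FPKM, for 43 members, at a median mean of 1.06 FPKM. Their median heated-to-control difference at 10 h was 0.23 on the log2(FPKM + 0.1) scale, with 31 above and 18 below 0, against a median of 0.00 over 6939 such rows of the genes with at least 5 FPKM in heated shoots at 10 h. The share above 0 was 57.4% of the 54 rows and 39.9% of the 6939. Some members gave several of the 54 rows. The authors' deposited table called 1 of the 54 rows higher (1.85%) and none lower, against 17 of the 6939 rows higher (0.245%) and 10 lower. By the RAP naming of rice loci, in which the first digits of an ID give the chromosome, 38 of 166 members (22.9%) lay on chromosome 3, against 14.2% of the 14698 genes; 27 lay on chromosome 1 (16.3% against 14.2%) and 22 on chromosome 2 (13.3% against 12.2%). The other chromosomes held 4 to 15 members each, from 2.41% against 5.44% on chromosome 9 to 9.04% against 8.13% on chromosome 6. The members on chromosome 3 include a pair of IDs with the same values. In 4 cases the members were neighbours in ID order, and in 2 of these both IDs had the same values.

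The members were also set beside the other genes that were higher at 10 h. A ratio of at least 1.9 with at least 5 FPKM in heated shoots at 10 h was met by 482 genes, 3.28% of the 14698, and the members are 34.4% of these. Of the other 316, 124 had gone above the early window, 138 below it and 54 both. The members stood at higher levels: their medians at 10 h were 50.1 FPKM in heated shoots and 22.4 FPKM in control shoots, against 16.3 FPKM and 4.89 FPKM in the 124, and 33.6 FPKM and 12.9 FPKM in the 138. A control at 10 h above all earlier controls was seen in 62.0% of the members, 53.2% of the 124 and 37.7% of the 138. No test was made of these differences, as the table holds no library values.

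Applied to each other time in turn, the same thresholds show how common a difference at a single time was. Genes that were higher in heated shoots at 1 time, and inside the window at the other 4, numbered 7, 68, 346, 429 and 166 in order of time. Genes that were lower by the matching limit, with at least 5 FPKM in control shoots, numbered 31, 252, 495, 344 and 44 in the same order. The authors' deposited table called 27 of the 44 lower at 10 h, where it called 2.16% of the 14690 genes with at least 5 FPKM in control shoots at 10 h, and the same contrast had chosen them. At 10 h higher genes thus outnumbered lower ones by 166 to 44, and at 2 h by 429 to 344. At 10 min, 20 min and 1 h lower genes were the more numerous. All genes leaned in a like way at 10 min, 20 min, 1 h and 10 h, but not at 2 h. Over the 22704 genes with a mean of at least 1 FPKM, 45.4%, 44.0%, 45.1%, 49.2% and 53.4% had a ratio above 1 in order of time. Rescaling the groups by their median ratios gave 141 higher genes at 10 h, and the lower genes were not recounted. Of these higher genes the authors' deposited table called, at their own time and in order of time, 1 of 7, 51 of 68, 274 of 346, 354 of 429 and 110 of 166. From 20 min on, the median ratios of these higher genes were 2.28, 2.39, 2.22 and 2.07 in order of time, so the 10 h set had the smallest typical difference of the 4.

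**Figure D5:**
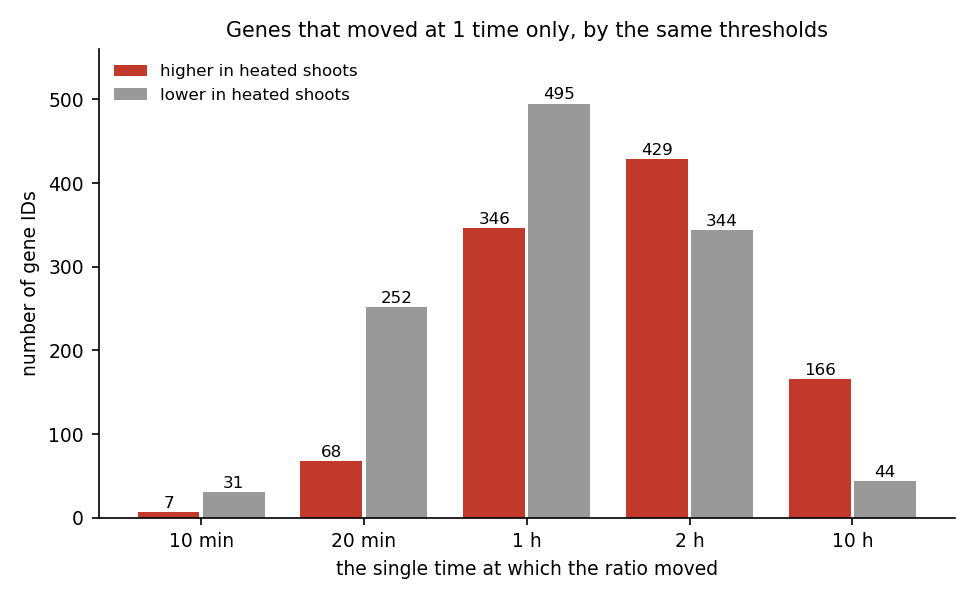
Number of gene IDs outside the limits at 1 time only, with the ratio at the other 4 times between 0.6 and 1.6. The left bar of each pair counts genes higher in heated shoots and the right bar genes lower in heated shoots; at 10 h there were 166 higher and 44 lower.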

How the data were processed

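Total RNA of 20 rice shoot libraries was sequenced by Illumina, per the labels' protocols. Cutadapt, TopHat2, Cufflinks and the build IRGSP-1.0 are listed, with no versions or roles, per the submitters' processing notes. Expression is FPKM as deposited, with 1 column per group made by the authors from 2 libraries. The q-values are the authors', with 2 decimals. The deposited log2 fold changes hold infinite values, were treated as a score, and served only as a check: for 0 of 166 members did they depart by more than 0.1 from the FPKM ratio where both groups had at least 1 FPKM.

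The members and comparisons were chosen with earlier results of these data known. Ratios used a pseudocount of 1 FPKM, and nothing was fitted or tested. Calculations used Python 3.11.15 with pandas 2.3.3 and were tested on simulated data. The planned gene lists were not formed, since 0 of 37248 IDs matched the reference table (assembly ASM3414082v1). The naming rule then allowed only the 2 called members with the highest ratio at 10 h; OS08G0139100 and members without an ID were picked after their values were seen. No sequence was analysed here. Alternatives were other pseudocounts, row choices, scalings and limits. The FPKM values carry no counts, so no interval or floor can be given.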

Additional observations from a re-analysis of the deposited data

How the results depend on the processing

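Each choice was changed in turn. A count is taken as stable when within 1.5 times the value reported, and a median when within 0.1 on the log2 scale; 60 of 95 comparisons were. A further 63 set 0 calls against 0, which the rule itself nearly fixes, and say nothing about stability; the sign of the 10 h ratio is fixed by the rule as well. Rescaling the groups by their median ratios gave 141 members, of which 134 were among the 166, and summing rows per ID gave 173, of which 156 were. With a pseudocount of 0.1 FPKM 174 genes met the rule, 130 of them members; calls lower were 1 at 20 min and 1 at 1 h, heated higher with control lower came to 12, and the median changes from 2 h to 10 h were 1.44 in heated and 0.29 in control shoots. With single-row IDs the lower calls were 1 and 2. A minimum of 1 FPKM gave 121 members with heated higher and control within, and medians of 1.43 and 0.25; a minimum of 10 FPKM left 1 lower call at 20 min. Early ratios held between 0.75 and 1.3 left 46 members, 31 of them called at 10 h and 0 called lower at 20 min or 1 h, with 24 heated higher and control within, 13 both higher, 7 heated within and control lower, 1 heated higher and control lower, and a heated median of 1.43. A ratio of at least 2.5 at 10 h left 21 members, 14 called at 10 h and 0 lower at 20 min or 1 h, with 12, 4, 4 and 1 in the same classes, a 10 h median of 1.59 (log2) and changes of 2.02 in heated and 0.19 in control shoots. With 2-fold for a change, 97 members had heated higher and control within, 27 both higher and 0 heated higher with control lower. At q below 0.01 there were 0 lower calls at 20 min and 1 h.

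No paired analysis was possible because the columns hold 1 value per group and carry no replicate number; for the same reason no run without a replicate was made. The early window and the 10 h limit were tightened but not loosened. Depth is unknown, and an exact 0 can be a failed estimate.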

Other observations

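The genes that mirrored the members, lower in heated shoots at 10 h with no earlier difference by the same limits, numbered 44, with 42 distinct sets of values. Their median at 10 h was 10.8 FPKM in heated shoots and 26.0 FPKM in control shoots. At 2 h the medians were 16.4 FPKM in heated shoots and 17.0 FPKM in control shoots. From 2 h to 10 h the median change was -0.72 in heated shoots and 0.26 in control shoots on the log2(FPKM + 1) scale. The 10 h control lay above all 4 earlier controls in 14 of the 44, inside their range in 17 and below it in 13.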
